A study of Homo sapiens with 2 samples.

Results

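Chemokine ligands and receptors were taken as all genes of the deposited table whose symbol is CCL, CXCL, CCR or CXCR followed by a number, together with XCL1, XCL2, XCR1 and ACKR2 to ACKR4, apart from a pair of receptor symbols that the selection leaves out. They were 59 of the 18930 genes listed, made up of 40 ligands, 16 receptors and 3 atypical receptors, which bind chemokines without G protein signalling. Bulk RNA sequencing had 1 library for each label, DR and WT, and GEO gives A375, an established line from a human melanoma, for the pair. In the study, DR cells are those that survived rising concentrations of dacarbazine (DTIC), an alkylating drug, and WT cells are the wild-type control. The labels, however, state 105 days of treatment for both libraries, with the drug spelled DITC. The count columns were assigned through the sample descriptions, which differ by a single punctuation mark, so each direction below rests on that assignment. Both column names resemble the title of the DR sample and neither resembles that of the WT sample, so whether the column used for WT holds the control could not be checked.

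Chemokines are small secreted proteins that steer migrating cells along concentration gradients, and their receptors are membrane proteins that couple to inhibitory G proteins and turn ligand binding into adhesion and movement. The CC and CXC names describe whether the first conserved cysteines of the ligand lie side by side or with another residue between them. Homing receptors such as CXCR4 and CCR10 keep cells in the bone marrow, skin or mucosa where their ligands are made, and inflammatory ligands such as CCL3, CCL5 and CXCL10 recruit leukocytes. Tumour cells can express both sides of this system.

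The values were estimated read counts, rounded to whole reads. The libraries held 54878355 reads (DR) and 35294670 reads (WT). Levels are given as CPM, the reads of a gene scaled to a fixed library size by edgeR's TMM method, and levels of different genes are compared only as RPKM, the CPM divided by gene length in kilobases. A gene was called higher or lower when log2(CPM + 0.5) differed by at least 1 between the libraries, among genes with at least 10 reads over both. With 1 library per label no test between conditions was possible and no p-value is given. Each range in parentheses is a 95% Clopper-Pearson interval that covers read counting only, and reads without molecular identifiers are not independent molecules. Less RNA per cell and fewer cells of a type cannot be told apart in bulk libraries.

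The labelled cell type was checked against marker genes. Of 8 melanocytic genes with counts, 5 had enough reads to be tested and none of these was called, and the median level was 0.189 CPM in the DR library and 0.374 CPM in the WT library, against 19.9 and 19.7 CPM over all 16210 genes tested. SOX10, a defining melanocytic factor, had 3 and 0 reads, and MITF, the highest of these genes, had 34.5 and 34.8 CPM. All 10 plasma cell genes were tested, with medians of 426 and 357 CPM. JCHAIN, the joining chain of secreted antibodies, reached 2009 and 2922 CPM, and 1 of the 10, MZB1, was called higher in the DR library (450.2 and 224.6 CPM). Most melanocytic markers were thus near 0 in libraries labelled as melanoma, and the samples are named by their labels only. Markers of other cells that make chemokines were low. The 7 T and NK cell genes together had 8.41 CPM (DR) and 7.10 CPM (WT), each gene lying between 0 and 3.72 CPM, with CD3E at 1.83 and 1.06 CPM. The 8 myeloid genes together had 26.4 and 20.5 CPM, each gene lying between 0 and 10.7 CPM, with CD14 at 0.844 and 0.604 CPM. The 4 stromal genes with counts had 14.1 and 3.19 CPM in sum, with COL1A1 and PDGFRB called higher in the DR library. COL1A2 and COL3A1 had at most 1 read in either library. The 3 endothelial genes with counts had 17.9 and 8.42 CPM in sum, with PECAM1 and VWF called higher. Their part in the chemokine results was not tested.

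Of the 59 chemokine and receptor genes, 3 (CCL13, CCL18 and XCL2) had no count and 14 others had fewer than 10 reads over both libraries. Among the 42 tested, 15 were called higher and 1 lower in the DR library, while of all genes tested 7.42% were called higher and 4.19% lower. The called genes were 12 of 25 ligands and 3 of 14 receptors upward, and the ligand CCL17 downward, and none of the 3 atypical receptors was called. The median log2 fold change was 0.49 over the tested members and 0.01 over all genes tested. Of the 42 members, 9 reached 10 reads only in the DR library and none only in the WT library. Among the 15 called higher, these were CCL2, CCL4, CCL4L1, CCL4L2 and CXCL13. These counts and the median therefore describe the genes and do not test the family. Summed over all ligands, the level was 829 CPM in the DR library and 302.4 CPM in the WT library, a ratio of 2.74. Without CCL3 and its copies the sums were 483.4 and 276.9 CPM, a ratio of 1.75. The receptors and atypical receptors summed to 170.9 and 117.8 CPM, a ratio of 1.45. CCL3 and its copies alone held 345.6 CPM in the DR library and 25.5 CPM in the WT library.

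CCL3, a macrophage inflammatory protein that attracts monocytes and T cells, had 13695 reads in the DR library and 810 in the WT library, or 246 and 23.3 CPM. This was 10.6-fold higher in the DR library (9.84 to 11.4). It ranked 171 of 16210 tested genes by RPKM there and 2973 in the WT library. CCL3L1, a near-identical copy of CCL3, had 3113 and 44 reads (55.9 and 1.26 CPM), 44.2-fold higher (32.9 to 61.0). CCL3L3, the other copy, had 2430 and 33 reads (43.6 and 0.948 CPM), 46.0-fold higher (32.7 to 67.0). All 3 genes were thus called higher, the copies with larger ratios than CCL3 itself. The longest protein-coding transcripts of CCL3 and CCL3L1 were 95.7% identical over 782 aligned positions in GENCODE 29, so the authors' counting could have split reads among them. Summed over the 3 genes, the reads were 19238 and 887, a ratio of 13.6 (12.7 to 14.5) that does not depend on the split. The copies held 28.8% of these reads in the DR library (28.2% to 29.5%) and 8.68% in the WT library (6.91% to 10.7%). The intervals did not overlap, but they do not cover how the counting divided shared reads among the copies. Whether the use of the copies differed between the libraries was not tested. In RefSeq, lncRNA genes overlap CCL3 (CCL3-AS1), CCL3L3 and CCL5, and whether the counting used strand is not given in the sources used here.

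The start regions of CCL3 and CCL3L3 are shown because both genes were called higher and their likeness bears on the counting. They are RefSeq sequences of GRCh38.p14 on the minus strand, 250 bases before to 50 bases after each gene's start, at chr17:36090094-36090393 for CCL3 and chr17:36196709-36197008 for CCL3L3. Aligned to each other they had 277 identical positions of 302, or 91.7%, with 17 mismatches and 8 gap positions. All letters are in lower case, since neither window held a match to the NF-kappaB consensus or to the interferon-stimulated response element searched below.
CCL3: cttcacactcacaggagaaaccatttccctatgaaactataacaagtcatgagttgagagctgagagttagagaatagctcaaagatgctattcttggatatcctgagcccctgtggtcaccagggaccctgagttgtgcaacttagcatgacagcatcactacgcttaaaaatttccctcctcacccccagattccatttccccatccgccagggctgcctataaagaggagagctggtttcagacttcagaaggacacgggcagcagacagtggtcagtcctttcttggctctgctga
CCL3L3: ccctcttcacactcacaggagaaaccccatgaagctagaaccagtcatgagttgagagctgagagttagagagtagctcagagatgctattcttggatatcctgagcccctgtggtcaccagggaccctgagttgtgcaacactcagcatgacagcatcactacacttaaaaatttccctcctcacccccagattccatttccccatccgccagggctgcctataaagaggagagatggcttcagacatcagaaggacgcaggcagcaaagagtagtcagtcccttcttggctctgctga

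CCL4, another macrophage inflammatory protein, was far lower than CCL3 per length, at 2.61 and 0.172 RPKM. It had 97 reads in the DR library and 4 in the WT library (1.74 and 0.115 CPM), 15.2-fold higher in the DR library (5.73 to 56.8). CCL4L2, a copy of CCL4, had 208 and 4 reads, 32.5-fold higher (12.5 to 120.4). CCL4L1 had 146 and 0 reads, at least 30.4-fold higher against a floor of 3 reads in the WT library, with a counting interval that began at 24.4. Together the 3 genes had 451 and 8 reads, a ratio of 35.2 (17.7 to 82.1). Almost all reads of CCL4 and its copies thus came from the DR library, which was also the deeper. Each of the 3 genes passed the filter through the DR library, with at most 4 reads in the WT library. CCL4 and CCL4L2 were 94.7% identical over 397 aligned positions. The copies held 78.5% of the summed reads in the DR library (74.4% to 82.2%) and 50% in the WT library (15.7% to 84.3%), intervals that overlap.

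CCL5, which attracts T cells, eosinophils and monocytes, had 3397 reads in the DR library and 730 in the WT library. Its level was 61.0 and 21.0 CPM, 2.91-fold higher in the DR library (2.68 to 3.15). CCL2, the main monocyte attractant and ligand of CCR2, was low at 60 and 9 reads (1.08 and 0.259 CPM), 4.17-fold higher (2.05 to 9.55). CCL17, a ligand of CCR4, was the only member called lower in the DR library, with 10 reads there and 34 in the WT library. It was 5.44-fold higher in the WT library (2.63 to 12.3). CCL22, the other CCR4 ligand, went the other way without being called, at 5.64 CPM (DR) and 3.05 CPM (WT). Its ratio was 1.85 (1.48 to 2.33). The CC ligands that were not called also included CCL1, a ligand of CCR8, at 2.08 and 1.26 CPM, and CCL24, which draws eosinophils, at 4.17 and 4.83 CPM. CCL28, a mucosal ligand of CCR10 and CCR3, had 4.26 and 5.52 CPM, and CCL16 had 0.970 and 1.35 CPM. Among these 4 ligands the interval of the ratio lay above 1 for CCL1 (1.16 to 2.39), below 1 for CCL28 (0.635 to 0.938), and across 1 for CCL24 (0.705 to 1.06) and CCL16 (0.477 to 1.09).

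**Figure D1:**
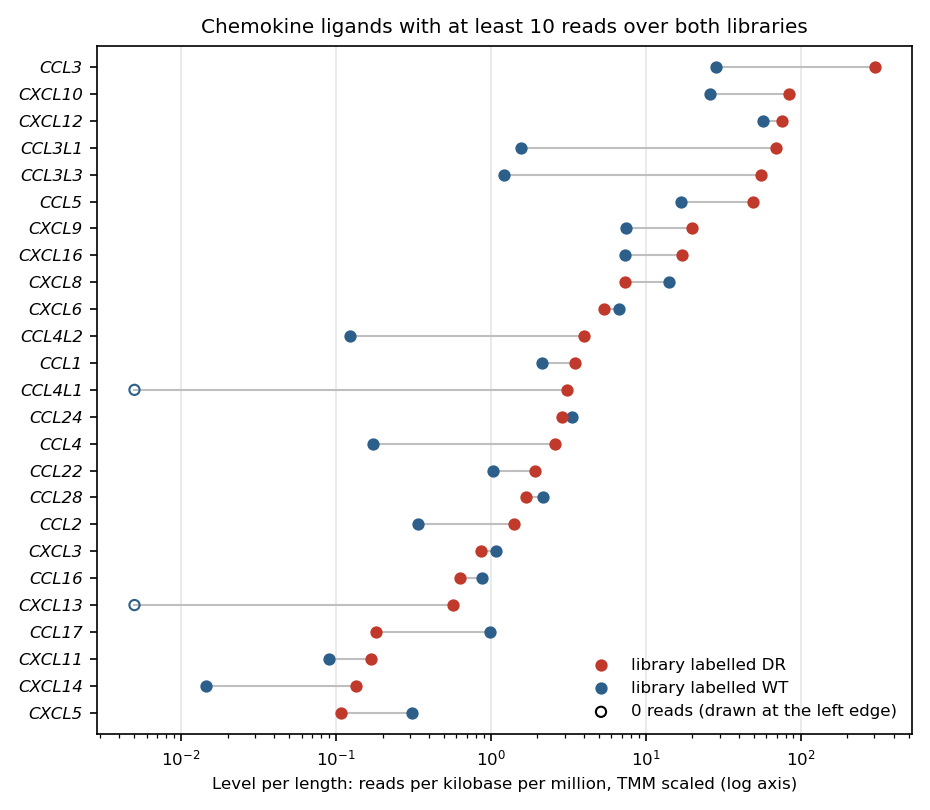
Level of each chemokine ligand with at least 10 reads over both libraries, as RPKM on a log axis, in the DR library (red) and the WT library (blue), 1 library each, with open circles at the left edge for 0 reads. CCL3 reached 302.6 RPKM in the DR library and 28.6 in the WT library, while CXCL12 lay at 76.2 and 57.6, and CCL4L1 and CXCL13 had 0 reads in the WT library.

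CXCL9, CXCL10 and CXCL11 are interferon-inducible ligands of CXCR3 and neighbour each other on chromosome 4. CXCL10 had 5762 reads in the DR library and 1106 in the WT library (103.5 and 31.8 CPM), 3.26-fold higher in the DR library (3.05 to 3.48). CXCL9 had 3007 and 705 reads (54.0 and 20.3 CPM), 2.67-fold higher (2.46 to 2.90). CXCL11, the next gene on, had only 15 and 5 reads, 1.88-fold higher with an interval across 1 (0.648 to 6.59). The first 2 of these genes were called higher and the third was almost silent in both libraries. CXCL10 overlaps ART3 in RefSeq and CXCL9 overlaps the lncRNA SDAD1-AS1.

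The windows around the starts of these 3 neighbours are shown as sequence only. They come from RefSeq on GRCh38.p14, all on the minus strand, at chr4:76007460-76007759 for CXCL9, chr4:76023448-76023747 for CXCL10 and chr4:76036021-76036320 for CXCL11. Capitals mark matches on either strand to the NF-kappaB consensus or to the core of the interferon-stimulated response element, which is GAAA, any 2 bases and GAAA again.
CXCL9: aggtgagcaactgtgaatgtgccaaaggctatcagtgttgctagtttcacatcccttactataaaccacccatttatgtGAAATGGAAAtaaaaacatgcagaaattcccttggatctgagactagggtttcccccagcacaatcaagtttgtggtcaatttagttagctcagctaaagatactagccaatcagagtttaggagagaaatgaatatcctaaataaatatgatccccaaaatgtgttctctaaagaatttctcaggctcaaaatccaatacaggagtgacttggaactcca
CXCL10: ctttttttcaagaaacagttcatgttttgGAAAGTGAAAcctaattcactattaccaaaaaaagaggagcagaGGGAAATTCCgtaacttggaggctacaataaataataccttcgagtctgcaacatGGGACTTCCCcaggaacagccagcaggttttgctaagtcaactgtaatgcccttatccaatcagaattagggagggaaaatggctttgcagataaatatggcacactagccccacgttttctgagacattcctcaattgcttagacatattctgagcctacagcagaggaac
CXCL11: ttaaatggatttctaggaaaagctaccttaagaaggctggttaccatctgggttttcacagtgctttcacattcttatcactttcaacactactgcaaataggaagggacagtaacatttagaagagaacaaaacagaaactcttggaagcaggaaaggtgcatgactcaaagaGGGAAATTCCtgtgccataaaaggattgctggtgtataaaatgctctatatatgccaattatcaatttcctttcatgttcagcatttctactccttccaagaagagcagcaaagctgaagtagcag
The CXCL10 window held the response element core from base -221 of the start and NF-kappaB matches from bases -177 and -122. The CXCL9 window held the response element core from base -171 and no NF-kappaB match. The CXCL11 window held 1 NF-kappaB match, from base -76, and no response element core. A window could be read for 39 of the 56 members with counts, 1 per gene, and for 7 of the 15 members called higher. Of all 27305 windows of this length, 10.8% held the NF-kappaB consensus and 3.66% the response element core, against 11 and 4 of the 39 member windows. Of the 7 windows of members called higher, 2 held the NF-kappaB consensus (CXCL10 and CCR3) and 3 the response element core (CXCL9, CXCL10 and XCR1). The interferon-gamma element TTCNNNGAA was in 7.88% of all windows and in 7 of the 39, and the AP-1 motif TGANTCA in 7.72% and 8 of the 39, with none of either in the 7 windows of members called higher. Every motif was searched on both strands, and a window was counted once however many matches, overlapping or not, it held. In the CXCL11 window the AP-1 match, not in capitals, lay just before the NF-kappaB match. That window also held 2 matches to the interferon-gamma element, not in capitals, from bases -240 and 19. The CXCL9 and CXCL10 windows held none. These matches describe letters only, and any link between a motif and the level of a gene was not tested.

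CXCL12, the stromal ligand of CXCR4 that retains blood-forming and plasma cells in the bone marrow, was the most abundant ligand per length in the WT library. It had 9638 reads in the DR library and 4548 in the WT library (173.1 and 130.7 CPM), and was not called, with a ratio of 1.32 (1.28 to 1.37). CXCL16, a membrane-bound ligand of CXCR6, was called higher with 2251 and 599 reads (40.4 and 17.2 CPM), 2.35-fold higher in the DR library (2.15 to 2.57). Its gene overlaps MED11 and ZMYND15 in RefSeq. CXCL13, which directs B cells into follicles through CXCR5, had 38 and 0 reads and was at least 7.92-fold higher against the floor, with a counting interval that began at 6.13, at a level of 0.683 CPM in the DR library. CXCL14 had 15 reads in the DR library and 1 in the WT library, a ratio of 9.38 (1.44 to 394.7), and was not called because its level was near the pseudocount.

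None of the neutrophil-attracting CXC ligands of CXCR2 was called. CXCL8 had 708 reads in the DR library and 849 in the WT library (12.7 and 24.4 CPM). It was 1.92-fold higher in the WT library (1.73 to 2.12), which was just under the call. CXCL6 had 8.98 and 11.3 CPM, with a ratio of DR over WT of 0.791 (0.692 to 0.905). CXCL5 had 15 and 27 reads, with a ratio of 0.347 (0.172 to 0.676) and a log2 fold change of only -0.73 because of the pseudocount. CXCL3 had 56 and 44 reads, with a ratio of 0.795 (0.526 to 1.21). These 4 had ratios below 1, with an interval that included 1 for CXCL3. CXCL1 and CXCL2, which share 91.4% and 90.6% identity with CXCL3, had at most 3 reads in either library.

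**Figure D2:**
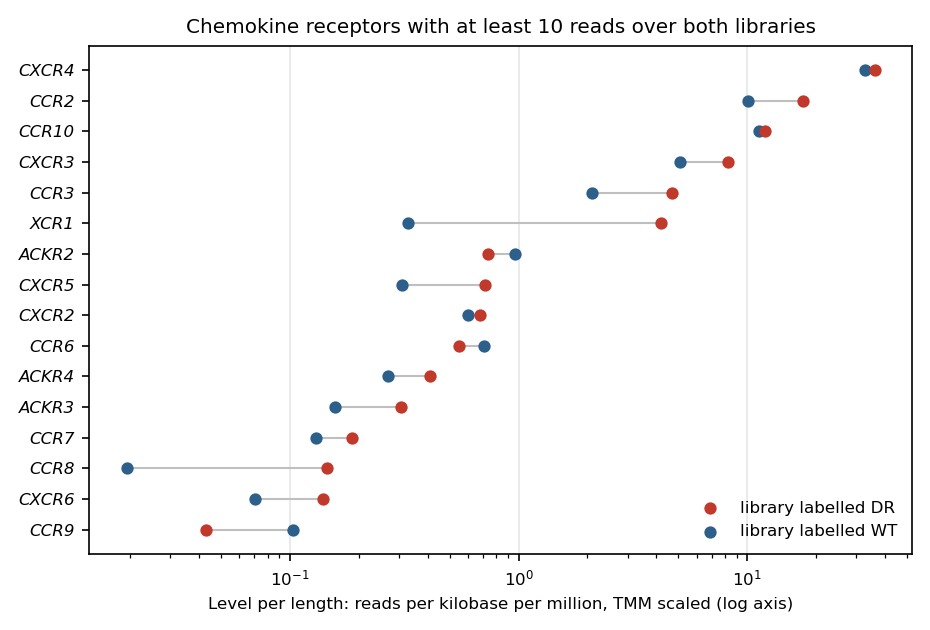
Level of receptors and atypical receptors with at least 10 reads over both libraries, as RPKM on a log axis, in the DR library (red) and the WT library (blue), 1 library each. CXCR4 (36.0 and 32.8 RPKM) and CCR10 (11.9 and 11.2) lay close together in both libraries, while XCR1 (4.21 and 0.327) lay far apart.

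Among the homing receptors, CXCR4 was the most abundant per length in both libraries. It had 3407 reads in the DR library and 1940 in the WT library (61.2 and 55.8 CPM), a ratio of 1.10 (1.04 to 1.16), far from a call. It held 41.2% of the summed RPKM of all receptors here in the DR library and 50.4% in the WT library. CCR10, which guides T cells to the skin and antibody-secreting cells to mucosa, had 826 and 487 reads (14.8 and 14.0 CPM). Its ratio was 1.06 (0.947 to 1.19), an interval that includes 1. The interval of CXCR4 thus lay just above 1 and that of CCR10 included it. CCR2, the receptor that lets monocytes leave the marrow, had 40.8 and 23.6 CPM, with a ratio of 1.73 (1.60 to 1.88). CXCR3, the receptor for CXCL9 and CXCL10, had 13.8 and 8.45 CPM, with a ratio of 1.63 (1.42 to 1.87). Neither was called, although both intervals lay above 1.

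XCR1 and CCR3 were called higher. XCR1, known from dendritic cells that cross-present antigen, had 845 reads in the DR library and 41 in the WT library (15.2 and 1.18 CPM), 12.9-fold higher in the DR library (9.41 to 18.1). CCR3, the eosinophil receptor, had 645 and 180 reads (11.6 and 5.17 CPM), 2.24-fold higher (1.90 to 2.66). The interval of CCR3 reached below 2-fold, unlike that of XCR1. In RefSeq the XCR1 gene overlaps the pseudogene NRBF2P2. XCR1, CCR3 and CCR2 follow each other in that order among the members on chromosome 3, and their ratios ran from 1.73 to 12.9. CXCR6, just before them, had 19 and 6 reads, and CCR9, before CXCR6, had 6 and 9.

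The remaining receptors were low. CXCR5, the follicle receptor of B cells, had 115 and 31 reads (2.07 and 0.891 CPM). Its ratio was 2.32 (1.55 to 3.57) with a log2 fold change of 0.88, under the call. Its gene overlaps the protein-coding gene BCL9L in RefSeq. CXCR2 had 1.72 and 1.52 CPM and CCR6 had 1.78 and 2.27 CPM, both with intervals across 1 (0.801 to 1.61 and 0.577 to 1.07). CCR7 had 23 and 10 reads, and CCR8 had 12 and 1, a ratio of 7.50 (1.11 to 320.6). The atypical receptors scavenge chemokines. ACKR2, which removes inflammatory CC ligands, had 122 and 100 reads (2.19 and 2.87 CPM). ACKR3, which takes up CXCL12, had 34 and 11 reads, and ACKR4 had 54 and 22. All 3 intervals of the ratio included 1. CXCR1 and CCR4 had at most 1 read in either library.

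**Figure D3:**
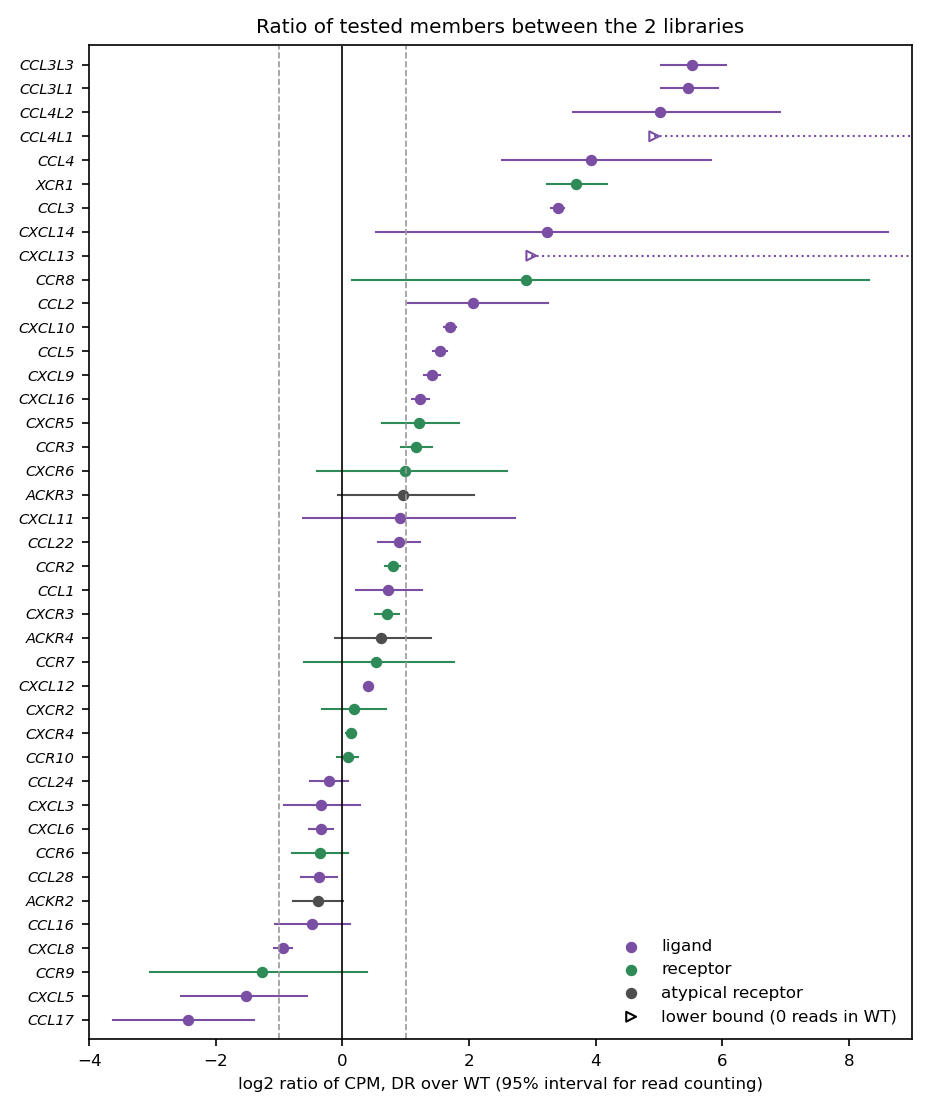
Log2 ratio of CPM, DR over WT, for tested members, with 95% intervals for read counting (lines), ligands in purple, receptors in green and atypical receptors in grey. Open triangles are bounds against a floor of 3 reads for CCL4L1 and CXCL13, dashed lines mark 2-fold, and the interval of CCR3 crosses the upper line while those of CXCR4 and CCR10 stay near 0.

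Per length, CCL3 held 42.5% of the summed RPKM of all ligands in the DR library, followed by CXCL10 (11.8%), CXCL12 (10.7%), CCL3L1 (9.76%), CCL3L3 (7.86%) and CCL5 (6.90%). In the WT library the order was CXCL12 (31.9%), CCL3 (15.8%), CXCL10 (14.3%), CCL5 (9.35%), CXCL8 (7.86%) and CXCL9 (4.12%). The leading ligand was thus CXCL12 in the WT library and CCL3 in the DR library, while the leading receptor was CXCR4 in both. With 1 library per label, the spread between cultures behind these orders is unknown.

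The ligands with almost no reads were CCL7, CCL8 and CCL19 (each 1 or 2 reads in the DR library and 0 in the WT library), CCL15 (2 and 5), CCL20 (6 and 1), CCL25 (8 and 0), CCL26 (1 and 1), CCL27 (0 and 1), CXCL17 (8 and 1) and XCL1 (0 and 4). The counting interval of the ratio began at 1.07 for CCL25 (DR over WT) and at 1.06 for XCL1 (WT over DR), and intervals of the others included 1. At this depth 3 reads are worth 0.0539 CPM in the DR library and 0.0862 CPM in the WT library.

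Receptors were set beside the ligands they are known to bind, and some of these pairs are given here. For CXCR3, the 3 ligands summed to 157.8 and 52.2 CPM, with the receptor not called. For CXCR4, neither the receptor nor its ligand was called. For CCR2, the 3 ligands with counts, CCL2 among them, summed to 1.11 and 0.259 CPM. For CXCR6, the ligand CXCL16 was called higher while the receptor had 0.341 and 0.172 CPM. For XCR1, the receptor was called higher while its ligand XCL1 had 0 reads in the DR library, and its other ligand XCL2 had no count. For CCR10, the ligands CCL27 and CCL28 summed to 4.26 and 5.55 CPM. For CCR3, which was called higher, the ligands CCL5, CCL24, CCL26 and CCL28 summed to 69.5 and 31.4 CPM. Of these ligands only CCL5 was called. For CXCR5, the ligand CXCL13 was called higher while the receptor was not called. The receptor CXCR6 and the ligand XCL1 thus had at most 19 reads in either library, and with XCL2 uncounted the ligand side of XCR1 is not fully known.

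Genes of receptor signalling, of homing adhesion and of ligand processing and capture were read from lists of 72 genes in all, of which 68 had enough reads. Of these, 14 were called higher (20.6%) and 3 lower (4.41%), against 7.42% and 4.19% of all genes tested, so the share of lower calls was near that of all genes. The median log2 fold change was 0.20. The lists were chosen with earlier results of these data known, so these shares describe the genes and do not test the lists. Of the 13 G protein subunits, 3 were called higher (23.1%) and none lower. They were GNAI1, an inhibitory alpha subunit (15.4 and 0.632 CPM, log2 fold change 3.81), GNAQ, which activates phospholipase C (7.60 and 0.201 CPM, 3.53), and GNG2, a gamma subunit (3.18 and 0.172 CPM, 2.45). GNAQ and GNG2 passed the filter through the DR library (423 and 177 reads), with 7 and 6 reads in the WT library. The most abundant subunits per length, GNB1 and GNAI2, were not called, with 468.2 and 568 CPM for GNB1 and 275.7 and 264.8 CPM for GNAI2. Per length, GNAI2 had 122.9 and 118.1 RPKM and GNAI1 had 4.64 and 0.191 RPKM, so the lower of these inhibitory subunits was the one called.

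Regulators of G protein signalling end receptor signals by speeding GTP hydrolysis. RGS1, which dampens chemokine responses of B cells, had 104.8 CPM in the DR library and 4.14 CPM in the WT library, 25.3-fold higher in the DR library. RGS2 had 19.0 and 2.99 CPM, 6.36-fold higher. The other 7 tested members of the list were not called, RGS16 lying lower in the DR library (26.3 and 45.7 CPM) and RGS14 higher (61.1 and 32.6 CPM). Among 6 receptor kinases and arrestins, which switch off and internalise receptors, ARRB1 was called higher (6.0 and 2.16 CPM) and GRK3 lower (7.10 and 15.4 CPM). GRK2 and GRK6, the most abundant per length, were not called. Thus 1 gene was called each way in that list (16.7% each). Of the 9 regulators of G protein signalling tested, 2 were called higher (22.2%) and none lower. Over all genes tested 7.42% were called higher and 4.19% lower. With lists this small the shares describe the named genes only.

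Of 22 downstream migration genes, 2 were called higher (9.09%) and 1 lower (4.55%), shares near those of all genes tested (7.42% and 4.19%). PIK3R5, the regulatory subunit of PI3-kinase gamma, had 4.10 and 0.546 CPM, and VAV1, an exchange factor for Rac, had 116.7 and 53.6 CPM. PAK1, a kinase that acts below Rac and Cdc42, had 27.8 CPM in the DR library and 124.3 CPM in the WT library, a log2 fold change of -2.14. RHOA and RAC2, the highest per length, were not called. The other 19 were not called.

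Homing also needs adhesion molecules. Of 10 tested, 3 were called higher (30%) and 1 lower (10%), against 7.42% and 4.19% of all genes tested. Those called higher included CD44, a hyaluronan receptor (210.1 and 43.7 CPM), and SELPLG, the P-selectin ligand (280 and 109.6 CPM). ITGA4, the alpha chain of the VCAM1 receptor, was called lower at 65.2 and 178.8 CPM. ITGB7, its mucosal partner chain, was the most abundant per length and was not called (6307 and 3938 CPM). Of 8 genes of ligand processing and capture, 3 were called higher (37.5%, against 7.42% of all genes tested). CD74, the invariant chain and receptor of MIF, had 1922 and 444.4 CPM, SDC4, a proteoglycan, had 4.90 and 1.41 CPM, and MMP9, a protease, had 1.10 and 0.287 CPM. MIF itself had 387.6 and 336.3 CPM and was not called.

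**Figure D4:**
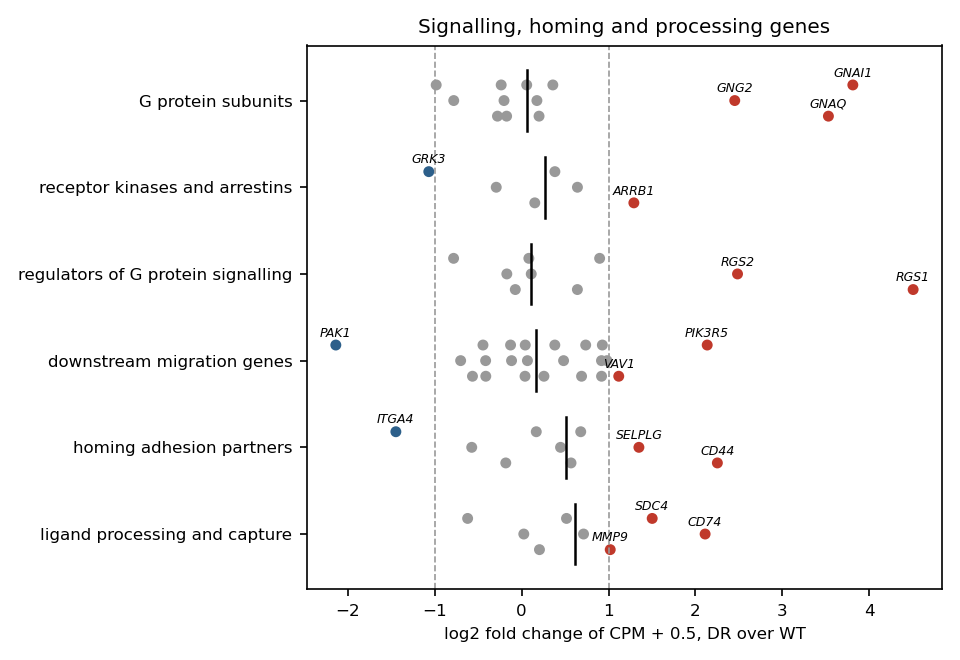
Log2 fold change of CPM + 0.5, DR over WT, of tested genes in the 6 lists of signalling, homing and processing genes, 1 point per gene drawn, with called genes in red (higher in DR) or blue (lower in DR) and the median of all tested genes of each list as a black line. RGS1 (4.50) and GNAI1 (3.81) lie farthest to the right and PAK1 (-2.14) farthest to the left, while most points lie between the dashed lines at 2-fold.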

How the data were processed

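The authors deposited a single table, with 18930 genes, their lengths in bases and an estimated count for either library. For 663 genes no count is given. The submitters' processing notes name Bowtie 0.12.2 and hg19 with no role, and the counting tool, annotation and strand setting are not given in the sources used here. The table also holds the authors' own log2 ratio, p-value, q-value and up or down mark, which were not used. The DR and WT libraries were taken from the labels, and each column from the sample description equal to its name.

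Estimated counts were rounded and scaled by TMM (edgeR 4.0.16, R 4.3.3, factors 1.01 and 0.986). The 16210 genes whose reads summed to 10 or more were tested for a log2 fold change of at least 1 with a pseudocount of 0.5 CPM, which understates the change of low genes. A quasi-likelihood model needs replicates and was not run. Intervals are 95% Clopper-Pearson intervals (SciPy 1.17.1). The floor was 3 reads in a library. The calling step was also run on simulated counts without spread between cultures, in which only genes with many reads were changed. That run cannot show how the calls would hold between cultures or for genes with few reads. Near-identical copies were aligned with Biopython 1.88 on GENCODE 29 transcripts. The genes, lists, pairs and motifs were chosen with earlier results of these data known, and the NF-kappaB pattern was narrowed to its consensus after a looser one matched most windows. Members at 1 CPM or more are given with values, the others by name and reads. From each list up to 3 genes called each way (mean of 1 CPM or more) and the 2 highest per length were named. RGS16, MITF, MZB1, COL1A2, COL3A1, PDGFRB, PECAM1, VWF and MMP9 were chosen after their values were seen. Alternatives were DESeq2 1.42.0 size factors, library totals, filters, pseudocounts, a higher threshold, an interval rule and leaving out or summing near-identical copies. Values of some genes that entered the counts and sums are not reported here, and these genes are not drawn.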

Additional observations from a re-analysis of the deposited data

How the results depend on the processing

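No paired analysis was possible because DR and WT have a single library each, and for the same reason no replicate could be left out. The 15 members called higher were the same genes with DESeq2's size factors, library totals and no filter. With at least 50 reads CXCL13 and CCL17 were not tested, which left 14 higher and 0 lower, against 1163 and 634 of all genes. Asking that the whole counting interval lie beyond 2-fold lost CCR3 only, with 1082 higher and 616 lower of all genes. A pseudocount of 0.1 CPM added CCR8, CXCL14 and CXCR5 upward and CXCL5 downward, for 18 higher and 2 lower. It gave 5 signalling and homing genes lower in place of 3, and 1717 higher and 920 lower of all genes. A pseudocount of 5 CPM, which shrinks low genes, gave 8 members higher and 0 lower, with CCL2, CCL4, CCL4L1, CCL4L2, CCR3 and CXCL13 among those lost, and 9 signalling and homing genes higher and 418 higher and 337 lower of all genes. A log2 threshold of 2 left 6 members higher (CCL3, CCL3L1, CCL3L3, CCL4L1, CCL4L2 and XCR1) and 0 lower, 8 and 1 signalling and homing genes, and 338 and 189 of all genes. Without members that have a near-identical copy 9 were higher and 1 lower. With the copies summed, an alternative chosen after seeing the data, 11 were higher and 1 lower. Both alternatives leave fewer than 42 members to test, so these counts cannot be set directly beside 15 of 42. In the main setting 7.42% of all genes tested were called higher and 4.19% lower. No log2 fold change of the 33 members compared changed sign with either scaling or pseudocount. By CPM in place of RPKM the 10 highest members of each library were the same genes. The depth limits the genes under 10 reads, and read counting intervals do not cover the spread between cultures.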

Other observations

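Chemokine-related genes outside the selection were read as well. CKLF, a chemokine-like factor, had 50.2 CPM in the DR library and 55.9 CPM in the WT library and was not called. CCRL2, an atypical receptor that presents chemerin, had 28 and 18 reads. CX3CL1, a membrane-bound chemokine, had 12 and 0 reads and was not called. PPBP, ACKR1, PF4V1 and GPR182 had at most 3 reads in either library.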
